A study of Drosophila melanogaster with 15 samples.

Results

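The data below are those of 8 membrane transporter genes of *Drosophila melanogaster*: an ABC transporter (CG10505), 4 carriers of the major facilitator superfamily (CG31106, CG31272, CG17752 and Picot), an amino acid transporter (mnd), an aquaporin-like channel (Eglp2) and a carrier-like mitochondrial protein (Slc25A46a). They are 8 of the 11982 genes with a probe set of their own in the annotation. They were chosen on the differences between treatments on these same arrays, so their levels and differences are a description, and no test is given for them. The selection rule itself had no numerical cut-off, so there are no values just inside or outside one. All of the 8 but Eglp2 are in the paper's list of genes at the stricter of its false discovery limits, drawn from these same arrays. Tests are given only for other genes. The lists of relatives were also drawn up with earlier results of these data known, so their tests are not independent of these arrays. The 8 genes are left out of the counts of relatives.

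Whole-body RNA was measured on 15 Affymetrix Drosophila GeneChip 2.0 arrays, 5 per treatment, each from a separate pool of 30 male flies of the isogenic Canton-S B strain, 3 to 5 days old. Control flies had no ethanol. First-exposure flies were frozen straight after they eluted at 3 to 5 minutes from the inebriometer, a column of ethanol vapor from which flies fall as they lose postural control. Second-exposure flies had been through the column once, spent 2 h on food, and were frozen after they eluted at 7 to 10 minutes in a second passage. The pools of a replicate were drawn from the same starting groups of flies, and the sources used here do not say whether arrays numbered alike belong to 1 replicate. All 3 treatments used this 1 strain, and no mutation or transgene is named for any of them. Second-exposure flies therefore differed from control flies in the number of exposures, in the time since the first one and in the time of sampling. They were also picked by elution window, whereas control flies never passed the column. These differences cannot be told apart. The paper names the 2 h gap in sampling as a possible source of its slow rise in circadian genes. Values are Signal, the linear and scaled intensity of a probe set, and they are compared between treatments for 1 gene at a time, never between genes. In RNA of whole flies, fewer cells of a type and less RNA per cell cannot be told apart.

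Membrane transporters decide what enters and leaves a cell. ABC transporters use ATP to pump substrates across membranes, and those of subfamily C include exporters of conjugated toxins and organic anions. The major facilitator superfamily moves small solutes down or against a gradient, often together with an ion, and it holds the organic cation and anion transporters of the SLC22 family, the phosphate and vesicular transporters of the SLC17 family, and proteins like SV2, which vertebrates carry on synaptic vesicles. The SLC7 family of amino acid transporters holds light chains that pair with a glycoprotein heavy chain, and cationic amino acid transporters that work without one. Aquaporins are channels for water, and some of them, such as the entomoglyceroporins of insects, also pass glycerol. SLC25 proteins carry metabolites across the inner membrane of the mitochondrion, whereas the human relative of Slc25A46a sits in the outer membrane and acts in the shape and division of the organelle.

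The arrays of a treatment correlated at r = 0.966 to 0.976 over log2 Signal. The array medians of Signal spanned 136 to 139.3 for control, 130.1 to 132.8 for the 1st and 138.8 to 142.1 for the 2nd exposure. Testis and male accessory gland markers were strong on all 15 arrays, with summed Signals of 20169.2 to 29767.1 for 5 testis genes. Second-exposure array 5 stood apart in the yolk protein genes of the female fat body and ovary: Yp1, Yp2 and Yp3 read 2521, 1669.5 and 1660.8 there. The sum of 5 ovary and yolk genes, these 3 among them, was 5867.6 on that array and 150.7 to 345.2 on the other 14 arrays. The rest of the 5, Cp18 and Cp36, were not raised on that array. They read 7.9 and 8.4 there, against 19.6 to 73.4 and 4.5 to 57.2 on the other arrays. Values without that array are given below where results rest on it.

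In the 2nd exposure, 6 of the 8 transporter genes were higher than in control flies on every array, mnd was lower on every array, and Eglp2 overlapped the control range. The 1st exposure gave another picture. Only Eglp2 and Slc25A46a had all 5 first-exposure arrays above all 5 control arrays, and the other 6 genes overlapped their control ranges. Of all probe sets tested, 5.45% did not overlap between the 2nd exposure and control and 2.8% between the 1st exposure and control. As the genes were chosen on these contrasts, nothing is read from the counts of 7 and 2 of 8 set beside those shares.

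**Figure D1:**
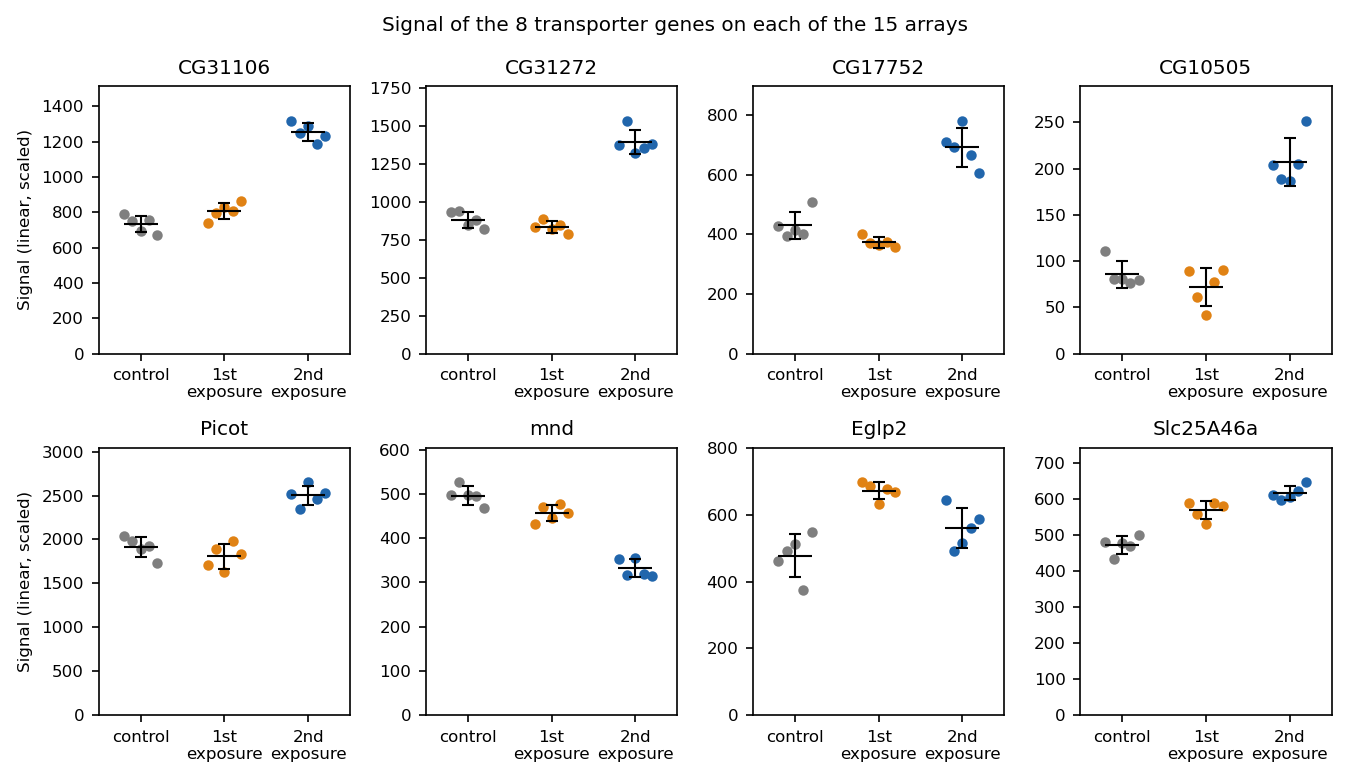
Signal of each of the 8 genes (linear scale from 0, one scale per gene) on control, 1st-exposure and 2nd-exposure arrays; points are the 5 arrays of a treatment, the horizontal bar is their mean and the whiskers are 1 SD. For CG10505 all 5 second-exposure points sit between 186.9 and 251.5, against 76.1 to 111.2 for control, while for Eglp2 it is the 1st-exposure points, 631.3 to 697.2, that clear the control points.

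CG10505 is an ABC transporter of subfamily C, the group of the multidrug resistance proteins. Its Signal was 111.2, 81.1, 80.5, 76.1 and 79.7 on the 5 control arrays, 89.2, 61.6, 42.1, 77.3 and 90.3 on 1st-exposure arrays, and 204.2, 188.7, 186.9, 205.2 and 251.5 on 2nd-exposure arrays. The 2nd-exposure arrays lay above every other array, whereas the 1st-exposure and control arrays were mixed. The mean of 207 ± 26.1 after the 2nd exposure, against 85.7 ± 14.4 in control flies (SD, n = 5 each), was a log2 difference of 1.28 (standard error 0.19) or 2.43-fold. That was the largest difference of the 8 genes, and the least precisely measured one. The coefficient of variation over 5 arrays was 28.3% after the 1st exposure. The log2 difference of the 1st exposure from control, -0.29 (standard error 0.19), was -0.11 without 1st-exposure array 3, which had the lowest Signal. Without 2nd-exposure array 5, the highest, the log2 difference of the 2nd exposure from control was 1.21.

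CG31106 and CG31272 are both grouped here with SV2-like proteins of the major facilitator superfamily. CG31106 gave 788.4, 748.9, 696.1, 757.5 and 673.2 on control arrays, 738.4, 797.9, 828.9, 806.0 and 866.0 on 1st-exposure arrays, and 1317.0, 1249.1, 1286.3, 1184.1 and 1231.7 on 2nd-exposure arrays. For CG31106, 4 of the 5 first-exposure arrays were already above the control range and array 1 was inside it, and the 2nd-exposure arrays stood well clear of both. The mean was 1254 ± 51.0 after the 2nd exposure and 733 ± 47.1 in control flies (SD, n = 5 each), a log2 difference of 0.78 (standard error 0.06), while the 1st exposure differed from control by 0.14 (standard error 0.06).

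CG31272 read 931.9, 942.7, 845.6, 880.7 and 820.2 in control flies, 836.2, 889.4, 820.2, 847.5 and 786.8 on 1st-exposure arrays, and 1376.3, 1535.8, 1323.8, 1358.4 and 1385.7 on 2nd-exposure arrays. Here the 1st-exposure arrays lay in the control range or, on array 5, below it, and the 2nd-exposure arrays again exceeded all others. The 2nd-exposure mean of 1396 ± 81.6, against 884 ± 53.1 in control flies (SD, n = 5 each), was a log2 difference of 0.66 (standard error 0.06). The log2 difference of the 1st exposure from control was -0.08 (standard error 0.06). Over all 15 arrays log2 Signal of CG31106 and CG31272 correlated at r = 0.931, and once the treatment means were removed r was 0.207, so most of the likeness lay between treatments. The arrays share the treatments and the scaling, and both values are descriptions.

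CG17752 belongs to the organic cation and anion transporter-like genes of the SLC22 family. Control arrays read 427.0, 395.4, 415.3, 401.1 and 508.8, 1st-exposure arrays 401.0, 369.1, 362.5, 374.3 and 356.0, and 2nd-exposure arrays 710.8, 693.2, 780.0, 666.2 and 603.9. Control array 5 was high among the controls, 4 of the 5 first-exposure arrays were below all controls, and the 2nd-exposure arrays were above everything else. After the 2nd exposure the mean was 691 ± 64.3, against 430 ± 46.0 in control flies (SD, n = 5 each). The log2 difference was 0.69 (standard error 0.08) for the 2nd exposure from control, -0.20 (standard error 0.08) for the 1st exposure from control, and 0.89 (standard error 0.08) for the 2nd from the 1st exposure.

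Picot is annotated as a phosphate cotransporter and lies in the SLC17 family. Its arrays gave 2041.5, 1987.8, 1887.7, 1920.5 and 1734.1 in control flies, 1707.6, 1886.9, 1623.9, 1981.5 and 1838.5 on 1st-exposure arrays, and 2516.9, 2348.2, 2650.4, 2466.1 and 2524.0 on 2nd-exposure arrays. The 1st-exposure and control ranges crossed, and the lowest 2nd-exposure array was above the highest of both. The mean after the 2nd exposure, 2501 ± 109, was 1.31-fold that of control flies, 1914 ± 117 (SD, n = 5 each), a log2 difference of 0.39 (standard error 0.07). The coefficient of variation after the 2nd exposure was 4.37%.

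The gene mnd (minidiscs) encodes an SLC7 amino acid transporter that is required for growth of the imaginal discs in the larva. Its Signals were 496.5, 526.1, 496.6, 494.2 and 467.6 on control arrays, 431.7, 471.4, 446.1, 476.7 and 457.7 on 1st-exposure arrays, and 351.8, 316.9, 356.0, 319.6 and 315.2 on 2nd-exposure arrays. It was the only one of the 8 genes whose mean after the 2nd exposure was below control. For mnd, 3 of the 5 first-exposure arrays were below the control range, and all 5 second-exposure arrays were below every other array. Its mean was 332 ± 20.2 after the 2nd exposure and 496 ± 20.7 in control flies (SD, n = 5 each), a log2 difference of -0.58 (standard error 0.05) or 0.668-fold. The 1st exposure differed from control by -0.12 (standard error 0.05) on the log2 scale. The name of its probe set marks probes that may also match other transcripts, so the part of those in its Signal is uncertain. Among the relatives called below, the probe sets of CG8785, CG4822, CG17646, CG3168 and MFS14 carry the same mark and the same limit.

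Eglp2 is an entomoglyceroporin, an aquaporin-like channel that passes glycerol. Control arrays gave 463.1, 490.5, 511.2, 375.6 and 547.5, 1st-exposure arrays 697.2, 684.9, 631.3, 678.5 and 667.9, and 2nd-exposure arrays 644.5, 491.5, 514.9, 560.3 and 588.7. The 1st-exposure arrays lay in a narrow band above all controls, while the 2nd-exposure arrays were scattered, with 3 of 5 above the control range and 4 of 5 below the whole 1st-exposure range. After the 1st exposure the mean was 672 ± 25.1, against 478 ± 64.8 in control flies (SD, n = 5 each), a log2 difference of 0.50 (standard error 0.10) or 1.42-fold. Without control array 4, the lowest, that difference was 0.42. The 2nd exposure differed from control by 0.23 and from the 1st exposure by -0.27 (standard error 0.10 for both). Eglp2 was the only gene of the 8 whose mean was higher after the 1st than after the 2nd exposure with both above control.

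Slc25A46a was higher after either passage. Its Signal was 480.6, 433.9, 478.9, 468.9 and 499.9 on control arrays, 588.5, 558.5, 530.5, 589.8 and 581.7 on 1st-exposure arrays, and 611.0, 597.8, 604.3, 622.8 and 646.0 on 2nd-exposure arrays. The 3 treatments did not overlap, with control lowest and the 2nd exposure highest. The mean was 570 ± 25.3 after the 1st exposure, against 472 ± 24.3 in control flies (SD, n = 5 each), a log2 difference of 0.27 (standard error 0.05). It was 616 ± 19.0 after the 2nd exposure (SD, n = 5), which differed from control by 0.38 on the log2 scale (standard error 0.05). The step between the exposures, 0.11 (standard error 0.05), was 0.01 when array medians were equalised, so its size depends on the scaling while its sign did not change in any of 27 alternatives. The other 7 genes kept the sign and most of the size of their difference between exposures under that scaling.

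**Figure D2:**
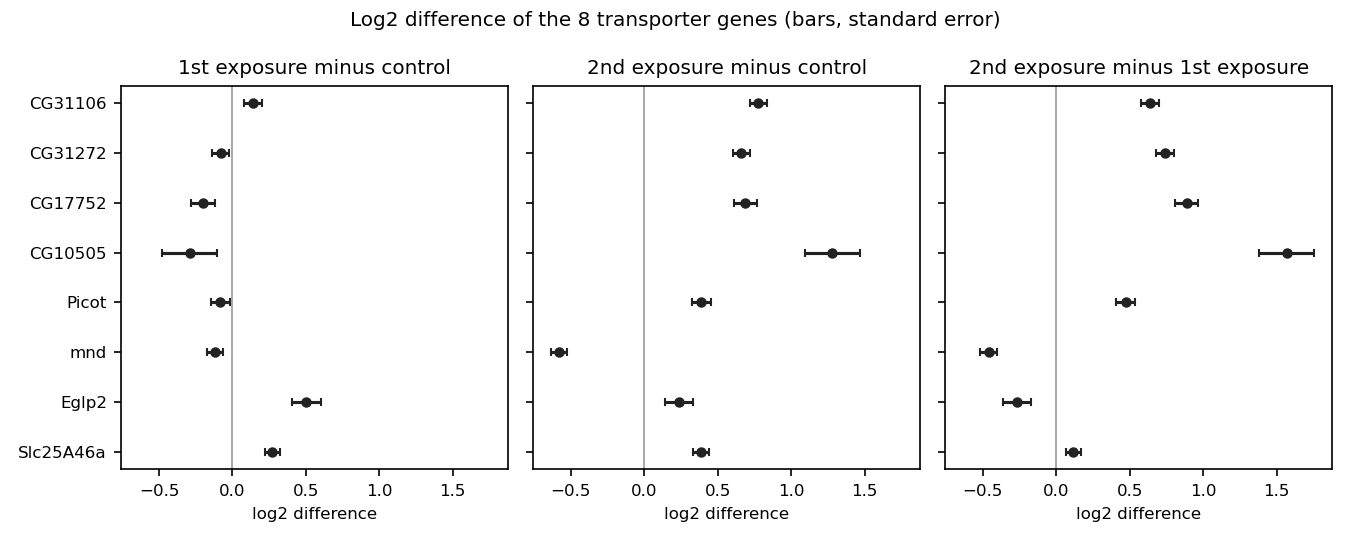
Log2 difference of each of the 8 genes for the 1st exposure minus control, the 2nd exposure minus control and the 2nd minus the 1st exposure (x axis, log2 units); points are the fitted differences and bars 1 standard error. The 1st exposure leaves 6 of the 8 genes between -0.29 and 0.14, and the 2nd exposure spreads them between -0.58 and 1.28.

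Setting the 2nd against the 1st exposure, 7 of the 8 genes did not overlap, with a background of 4.87% of all probe sets, and Eglp2 was the exception. CG10505 was 2.97-fold, CG17752 1.85-fold, CG31272 1.67-fold, CG31106 1.55-fold and Picot 1.39-fold as high after the 2nd as after the 1st exposure, and mnd was 0.726-fold as high. For CG31272, CG17752, CG10505 and Picot the 1st-exposure mean was below that of control flies, so their difference between the exposures exceeded their difference from control. Both contrasts with control use the same 5 control arrays.

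Among replicate arrays the 8 genes did not move as a block. With treatment means removed, r over the 15 arrays between pairs of the 8 ran between -0.436 for CG31272 with Slc25A46a and 0.72 for Picot with mnd, which differ in opposite directions after the 2nd exposure. The leading pattern of variation within treatments, a component with 13.53% of the residual variance over all probe sets, correlated with the within-treatment deviations at r = 0.57 for Picot, 0.46 for CG10505 and -0.46 for CG17752, and between -0.06 and 0.32 for the other 5. These are descriptions over 15 arrays that share their treatments. Second-exposure arrays 4 and 5 scored 23.3 and 19.9 on that component, and arrays 1, 2 and 3 between -18.2 and -8.3. Without arrays 4 and 5 the log2 difference of the 2nd exposure from control was 1.19 for CG10505, 0.81 for CG31106, 0.77 for CG17752, 0.67 for CG31272, 0.39 for Picot, 0.36 for Slc25A46a, 0.21 for Eglp2 and -0.54 for mnd. Without array 5 alone, the one with yolk protein transcripts, it was 0.78 for CG31106, 0.66 for CG31272, 0.73 for CG17752, 0.38 for Picot, 0.37 for Slc25A46a, 0.21 for Eglp2 and -0.56 for mnd, and CG10505 is given above.

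Markers of the tissues in a whole male, together with the 5 ovary and yolk genes, were read beside these differences. Of these 33 marker genes, in 8 sets, none passed limma's test with Benjamini-Hochberg adjustment after the 1st exposure. By limma 3 of the 33 had an unadjusted p under 0.05. No share of all probe sets with such a p is given here or below, so nothing is read from unadjusted counts. After the 2nd exposure 1 of 4 Malpighian tubule markers fell (Oatp58Db, log2 difference -0.38, adjusted p = 0.0213). Of all probe sets 2.42% rose and 1.21% fell in that contrast. The other tubule markers did not pass: NaPi-T (-0.40, adjusted p = 0.0896), Irk2 (-0.09) and CG3014 (-0.01). NaPi-T is also among the SLC17 relatives below. The summed Signal of the 4 was 1760.7 to 2032.9 after the 2nd exposure and 2016.7 to 2263.7 in control flies. Of 5 fat body markers 2 passed in the same contrast: plin1, a lipid droplet protein, rose (0.83, adjusted p = 0.0188) and apolpp, the lipid carrier of the blood, fell (-0.40, adjusted p = 0.0135). The others, FASN1 (0.01), Lsp2 (0.47) and Nlaz (-0.19), did not pass against control. Nlaz fell between the 1st and the 2nd exposure (-0.25, adjusted p = 0.0326), where 0.645% of all probe sets fell. The fat body sums were 26443.5 to 34535.8 after the 2nd exposure and 30696.0 to 33406.1 in control flies. None of the 3 midgut markers passed, with sums of 52016.8 to 67957.8 after the 2nd exposure and 59111.6 to 64509.4 in control flies. The part of these tissues in the differences of the 8 genes was not tested.

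The families of the 8 genes were then read for relatives, 169 genes in 8 lists, of which 150 had a tested probe set of their own. After the 1st exposure 1 of the 150 rose and 0 fell by limma's test with adjustment over all 13809 probe sets, where 0.174% rose and 0.188% fell. By limma 25 of the 150 had an unadjusted p under 0.05. The share of all probe sets with such a p is not given, so nothing is read from that count. Setting the 2nd exposure against control, 7 rose and 3 fell, with 2.42% and 1.21% over all probe sets. Among the 7 was CG15221, which reached the minimum mean Signal only through arrays of exposed flies. From the 1st to the 2nd exposure 2 rose and 5 fell, with 1.12% and 0.645% over all probe sets. Without 2nd-exposure array 5, 7 relatives passed against control and 5 between the exposures. Leaving that array out ended the calls of CG3168, MFS14 and CG9826 against control. It also ended those of CG3168, CG16727 and CG3036 between the exposures, so the 5 that passed there were not all called with every array in. Without array 4 of the 2nd exposure, 6 relatives passed against control and 4 between the exposures. Without the first of the 1st-exposure arrays, or the fourth, 0 relatives passed after the 1st exposure by limma. The median log2 difference of the relatives from control was -0.01 after the 2nd exposure and 0.00 over all probe sets. It was -0.03 after the 1st exposure, with -0.02 over all probe sets.

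**Figure D3:**
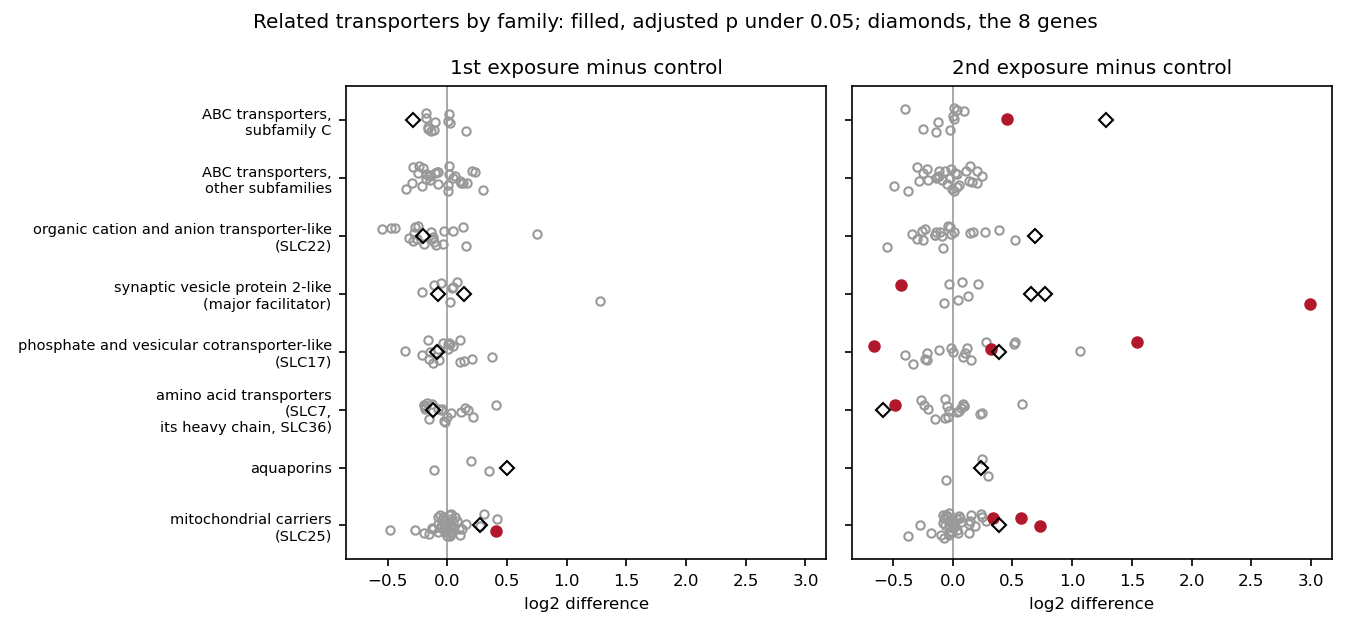
Log2 difference (x axis) from control of the 150 tested relatives by family, after the 1st exposure (left) and the 2nd exposure (right); open circles did not pass an adjusted p of 0.05, filled circles passed, and diamonds are the 8 chosen genes, which were not tested. The 1st exposure has 1 filled point and the 2nd has 10, and the far point at 2.99 is CG15221, whose control Signal was near background.

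In the ABC transporters of subfamily C, the family of CG10505, 1 of 11 tested relatives passed after the 2nd exposure, where 2.42% of all probe sets rose. The relative was MRP, the fly's multidrug resistance-associated protein. MRP read 3111.5, 2418.5, 2538.3, 2652.6 and 2663.2 after the 2nd exposure, against 2046.5, 2142.2, 1723.9, 2160.6 and 1698.3 in control flies, with no overlap. It rose by 0.46 on the log2 scale (standard error 0.09, adjusted p = 0.00948). The call held in all 15 fits with 1 array left out and ended without 2nd-exposure arrays 4 and 5. In the other ABC subfamilies none of 29 passed against control by limma after the 2nd exposure, with 7 at an unadjusted p under 0.05. Between the exposures 3 of the 29 passed, where 1.12% of all probe sets rose and 0.645% fell. CG4822 (-0.45, adjusted p = 0.0193) and CG17646 (-0.44, adjusted p = 0.0253) fell, and ldd rose (0.29, adjusted p = 0.0363). With single arrays left out in 15 fits, the call of CG17646 ended in 6, that of ldd in 8 and that of CG4822 in 2.

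Among the SLC22-like genes, none of 21 relatives of CG17752 passed against control after the 2nd exposure by limma, and 2 had an unadjusted p under 0.05. The gene next to CG17752 on one side in RefSeq's Release 6 annotation, CG16727, is of the same family. It read 546.1, 497.9, 538.6, 441.0 and 502.3 on control arrays, 444.4, 518.0, 420.4, 460.8 and 454.1 on 1st-exposure arrays, and 651.8, 504.4, 616.1, 630.6 and 652.1 on 2nd-exposure arrays. Array 2 of the 2nd exposure lay within the other groups, and the rest were above them. CG16727 rose between the 1st and the 2nd exposure (0.41, standard error 0.09, adjusted p = 0.0276), a call that ended in 8 of 15 fits without single arrays, and differed from control by 0.27 (adjusted p = 0.102). The neighbour on the other side, CG17751, also SLC22-like, had means of 45.3 ± 14.1 after the 2nd exposure and 56.1 ± 13.1 in control flies (SD, n = 5 each; -0.34, adjusted p = 0.465).

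Both SV2-like genes also had a family member next to them. CG31103, beside CG31106, had means of 410 ± 88.0 after the 2nd exposure and 350 ± 44.1 in control flies (SD, n = 5 each; 0.21, standard error 0.19, adjusted p = 0.640). CG14691, beside CG31272, had means of 330 ± 36.6 after the 2nd exposure and 347 ± 20.4 in control flies (SD, n = 5 each; -0.07, standard error 0.11, adjusted p = 0.791). Neither passed, and the spread of CG31103 over arrays was wide, 331.4 to 549.6 after the 2nd exposure. Elsewhere in the list CG3168 fell after the 2nd exposure (-0.44, standard error 0.10, adjusted p = 0.0256), also when set against the 1st exposure (-0.48, adjusted p = 0.0283), and CG15221 rose (2.99, standard error 0.49, adjusted p = 0.00405). CG15221 read 74.8 to 108.8 after the 2nd exposure and 3.9 to 28.8 in control flies, values near background in control, where the ratio is imprecise. Its control mean of 13.8 was under the minimum mean Signal of 20, so it entered the test only through its exposed arrays. With a mean of 45.8 over the 15 arrays, it was not tested at the minimum of 70. With single arrays left out in 15 fits, the call of CG3168 against control ended in 4, its call against the 1st exposure in 6 and the call of CG15221 in 0. The call of CG3168 against the 1st exposure also ended with quantile normalization, with no Signal filter and without 2nd-exposure arrays 4 and 5, and the last of these ended its call against control.

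**Figure D4:**
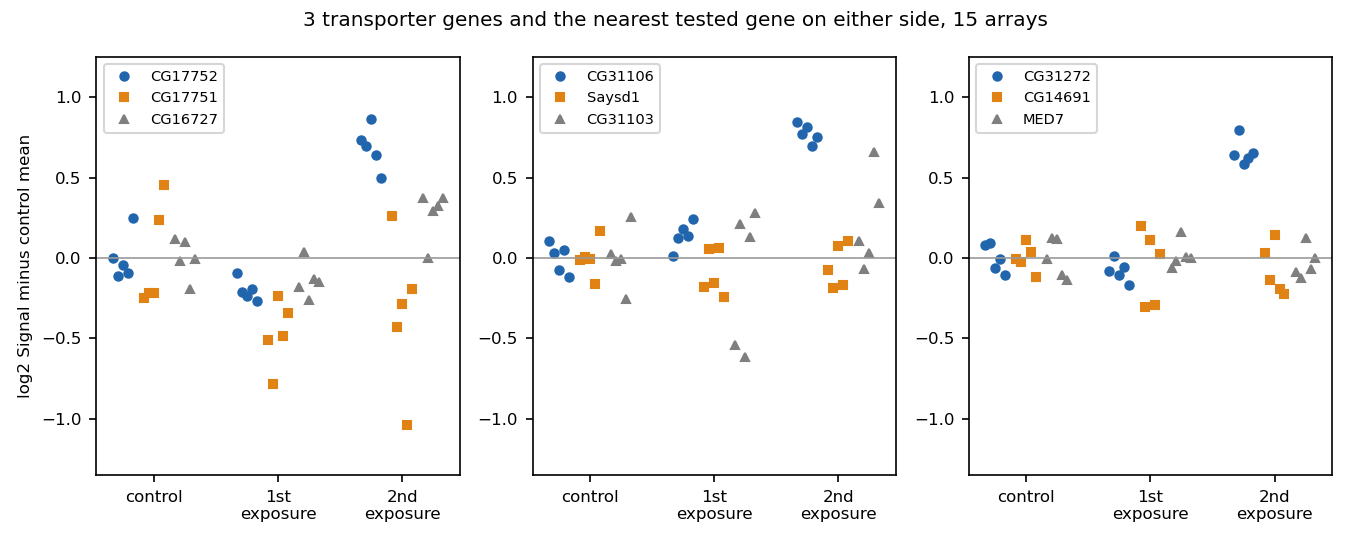
Log2 Signal minus the mean of the control arrays (y axis) for CG17752, CG31106 and CG31272 (circles) and for the nearest tested gene on either side in the annotation (squares and triangles; MED7 is 2 genes from CG31272, the others 1), 5 points per treatment, 1 per array. After the 2nd exposure the circles of the 3 chosen genes lie above 0 on every array, while CG17751, Saysd1, CG31103, CG14691 and MED7 scatter on both sides of 0 and CG16727 is above 0 on 4 of 5 arrays and at its control mean on array 2.

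Over all 8 genes, 16 neighbouring genes with a tested probe set were read, 2 per gene. Most were the adjacent gene, but MED7 lay 2 genes from CG31272, Amyrel and CG34458 each 2 genes from Picot, and apt and retn 7 and 3 genes from Eglp2. By limma none passed against control after the 1st or the 2nd exposure, with 1 and 2 at an unadjusted p under 0.05, and CG16727 alone passed between the exposures. Their log2 differences from control after the 2nd exposure had a median of -0.02 and ran between -0.34 and 0.32.

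In the SLC17 family of Picot, MFS14 rose after the 2nd exposure (0.32, standard error 0.07, adjusted p = 0.0256), with 1754.9 to 2280.8 after the 2nd exposure and 1526.4 to 1741.2 in control flies. CG9826 also rose (1.55, adjusted p = 0.0431) and MFS3 fell (-0.66, adjusted p = 0.0448), and the control mean of CG9826 was only 31.0. These made 3 of 19 tested relatives, where 2.42% of all probe sets rose and 1.21% fell. In 15 fits without single arrays the calls of MFS14, CG9826 and MFS3 ended 6, 11 and 12 times, so nothing is read from the count of 3. CG3036 fell between the 1st and the 2nd exposure (-0.32, adjusted p = 0.0307), a call that ended in 6 of 15.

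The amino acid transporter list read with mnd joins the SLC7 family, its heavy chain and the separate SLC36 family, and both calls in it were of SLC36 genes. In it, 1 of 19 relatives passed against control after the 2nd exposure, where 1.21% of all probe sets fell. CG8785, of the SLC36 family of proton-coupled amino acid transporters, read 395.3, 481.0, 442.7, 414.9 and 381.7 after the 2nd exposure, against 598.3, 585.4, 628.4, 648.9 and 497.6 in control flies. The groups did not overlap, and CG8785 fell by 0.48 on the log2 scale (standard error 0.09, adjusted p = 0.00734). The SLC36 transporter path (pathetic), which acts in the growth of large cells in the fly, fell between the 1st and the 2nd exposure (-0.46, standard error 0.08, adjusted p = 0.0160). Its mean was 1638 for control, 1903 for the 1st and 1397 for the 2nd exposure. Both calls held in all 15 fits with 1 array left out and ended without 2nd-exposure arrays 4 and 5.

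Of the aquaporins beside Eglp2, 3 had a probe set of their own and none passed by limma in any of the 3 contrasts, with 1, 1 and 0 at an unadjusted p under 0.05. Drip, a water channel of the Malpighian tubule, had means of 895 ± 118 after the 1st exposure and 774 ± 48.8 in control flies (SD, n = 5 each; 0.20, adjusted p = 0.421). After the 2nd exposure it averaged 949 ± 54.7 (0.30, adjusted p = 0.0744). Prip, another water channel, had means of 942 ± 111 after the 1st exposure and 1016 ± 88.5 in control flies (SD, n = 5 each; -0.11, adjusted p = 0.721). The genes Eglp1, Eglp3 and Eglp4 were not analysed here.

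Of 40 SLC25 carriers related to Slc25A46a, 3 rose after the 2nd exposure and 0 fell by limma, with 8 at an unadjusted p under 0.05. Over all probe sets 2.42% rose and 1.21% fell. SCaMC, a carrier of ATP-Mg and phosphate, was the single relative that passed after the 1st exposure. It read 1193.5, 1108.7, 1133.2, 1153.5 and 1144.4 after the 1st exposure, against 853.8, 898.3, 889.4, 922.5 and 768.6 in control flies. The 2nd-exposure arrays gave 1042.8, 986.3, 1173.8, 1163.3 and 1119.4. All 10 arrays of exposed flies were above all 5 control arrays. SCaMC rose by 0.41 after the 1st exposure (standard error 0.06, adjusted p = 0.0150) and by 0.34 after the 2nd (standard error 0.06, adjusted p = 0.00896). Its call after the 1st exposure ended without 1st-exposure array 1 (or array 4), and that after the 2nd ended without 2nd-exposure arrays 4 and 5.

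Rim2, a carrier of pyrimidine nucleotides, read 687.9, 630.1, 806.1, 698.0 and 840.7 after the 2nd exposure, against 529.6, 507.7, 495.7, 541.7 and 390.0 in control flies (log2 difference 0.57, standard error 0.10, adjusted p = 0.00660). Tpc2, a thiamine pyrophosphate carrier, had means of 261 after the 2nd exposure and 160 in control flies (0.73, standard error 0.14, adjusted p = 0.0121). Both calls held in all 15 fits with 1 array left out. Slc25A46b, the closest relative of Slc25A46a by name, had means of 1579 ± 176 after the 2nd exposure and 1606 ± 101 in control flies (SD, n = 5 each; -0.03, standard error 0.09, adjusted p = 0.920).

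Other genes whose log2 Signal over the 15 arrays was most like that of each transporter were sought among 9214 named probe sets whose mean Signal reached 100. CG31106 was closest to CG11878 (r = 0.989) and the trypsin-like protease Try29F (r = 0.951). CG31272 was closest to CoRest, part of a corepressor complex (r = 0.933), and to the cytochrome P450 Cyp6a8 (r = 0.932). CG17752 also had CoRest (r = 0.942) after CG15155 (r = 0.944), with the small heat shock protein l(2)efl next (r = 0.938). CG10505 and Picot were each among the 3 most like the other (r = 0.922), and CG31272 was among those of Picot (r = 0.925).

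For mnd the closest were ergic53, a cargo receptor of the secretory pathway (r = 0.954), and the trypsin zetaTry (r = 0.944). Slc25A46a was closest to PCB, pyruvate carboxylase (r = 0.940), with means of 680 for control, 1021 for the 1st and 1248 for the 2nd exposure. Eglp2 had the weakest likeness of the 8, with the ribosome assembly factor LTV1 first (r = 0.886). All these values are over the same 15 arrays, which share their treatments and scaling.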

How the data were processed

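Per the labels and methods, Trizol RNA of pooled flies was hybridised to 1 array per pool. The deposited unit is Signal, an intensity that the authors obtained with Microarray Suite 5.0 from perfect-match and mismatch probes, scaled per array. The methods give a median of 500 as the target, but in the deposited values the mean after trimming 2% at both ends is 500 on each array, and medians differ between treatments. Of 18952 probe sets, 183 controls were dropped, and the 13809 whose mean Signal reached 20 entered limma 3.58.1 (R 4.3.3) as log2(Signal). The model had 1 mean per treatment and moderated variances, and p values were adjusted after Benjamini-Hochberg at 0.05. This replaces the authors' analysis of variance and removal of Absent probe sets. The number of arrays limits the precision.

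A gene was read by its probe set with the highest mean Signal among those with 1 gene in the platform annotation (13646 of 18769 probe sets, with 402 naming several genes and 4721 none). Each of the 8 transporters had 1. RefSeq's Release 6 gene table gave names and neighbours. The members and lists were chosen with earlier results of these data known. Named were relatives past the threshold in any contrast, the nearest tested gene on either side of each transporter, closest relatives and the 3 genes most alike. CG1819 and CG34120 are 1 gene in the annotation, ldd, counted once.

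Each array was left out in turn. Other alternatives were arrayWeights, an intensity trend in eBayes, a block for the replicate number, a probe set average per gene, quantile normalization, equal medians across arrays, a pseudocount of 50, linear Signal with the one-way analysis of variance of the methods, and a minimum mean Signal of 70 or none. The following were chosen after seeing the data: a covariate for the first residual component, and omission of both 2nd-exposure arrays 4 and 5. Scripts were tested on simulated data. Plots used matplotlib 3.10.9, and tables Python 3.11.15 with numpy 2.4.6 and pandas 2.3.3.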

Additional observations from a re-analysis of the deposited data

Results flagged for a closer look

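In 4 of the 72 groups of 5 arrays examined, 1 array lay far from the other 4 by Dixon's ratio, the gap to the nearest array over the range of the group. Chance gives about 1 in 20 such groups. For CG17752 control array 5 read 508.8, with the other control arrays at 395.4 to 427.0 (ratio 0.721). For CG10505 control array 1 read 111.2, with the others at 76.1 to 81.1 (ratio 0.858), and 2nd-exposure array 5 read 251.5, with the others at 186.9 to 205.2 (ratio 0.717). For CG16727, 2nd-exposure array 2 read 504.4, with the others at 616.1 to 652.1 (ratio 0.756). The causes were not tested.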

How the results depend on the processing

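None of the 24 log2 differences of the 8 transporters changed sign in any of 27 alternatives. Equalised array medians lowered all differences of the 2nd from the 1st exposure by 0.10, to 0.54 for CG31106, 0.64 for CG31272, 0.37 for Picot, -0.56 for mnd and 0.01 for Slc25A46a, and turned the relatives called there from 2 higher and 5 lower to 0 and 6. With log2(Signal + 50), CG10505 differed by 0.92 from control and by 1.09 from the 1st exposure after the 2nd, as its Signal is low. Of the 150 relatives, 1 passed after the 1st exposure, but 2 with the replicate block, arrayWeights, a probe set average per gene or the residual component, and 0 to 1 with single arrays left out (0 without 1st-exposure replicate 1 or 4). The 10 called after the 2nd exposure against control became 22 (12 higher, 10 lower) with the residual component, 5 without 2nd-exposure arrays 4 and 5, and 6 to 11 with single arrays left out (6 without 2nd-exposure replicate 4). The 7 called between the exposures became 3 with no Signal filter, 1 without 2nd-exposure arrays 4 and 5, and 2 to 8 with single arrays left out (2 to 4 when any single 1st-exposure array was left out, 3 without 2nd-exposure replicate 1 and 4 without replicate 4). The causes were not tested. Residuals of arrays with the same replicate number correlated at -0.0731 to 0.0982, those of other numbers at -0.163 to 0.138, and 3 of 15 arrays lay closest to their own number, so the numbers were not read as pairs. The replicate block gave 9 against control and 5 between the exposures, and ended the calls of MFS14, CG9826 and MFS3 against control and of CG17646, CG16727 and ldd between the exposures. The limits are 5 arrays per treatment, low Signal for CG10505, CG15221 and CG9826, and 1 array with yolk protein transcripts, without which 7 relatives passed against control and 5 between the exposures.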
